A study of Mus musculus with 12 samples.

Results

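Satellite cells, the stem cells of skeletal muscle, are recognised by proteins on their surface and by genes that are active while they rest. The 10 genes described here are such markers, taken by name: Calcr, Cd34, Vcam1, Itga7, Cxcr4, Cdh15, Cdh2, Ncam1, Tenm4 and Chrdl2. All 10 were found among the 25093 genes of the count table. They were measured in quiescent satellite cells (QSCs) of mice with and without the transcription factor gene Gli3.

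Resting satellite cells lie between the muscle fiber and the basal lamina. Integrin α7 ties them to laminin of the lamina, cadherins tie them to the fiber, and the calcitonin receptor holds them in quiescence through cyclic AMP and protein kinase A. Surface antigens such as CD34, VCAM1 and α7-integrin also serve to sort them by flow cytometry, and injury brings the cells out of quiescence, which changes many of these genes.

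Both genotypes carried Pax7-CreERT2/+ and the R26R-YFP reporter, were 3 to 4 months old and received tamoxifen. Controls were Gli3+/+, and in the Gli3∆/∆ mice the floxed Gli3 gene had been deleted in cells in which the Pax7 locus drives the Cre. QSCs came from uninjured hindlimb muscle, sorted as α7-integrin+ CD34+ and negative for CD31, CD45, SCA1 and CD11b, and each of the 3 libraries per genotype combined 2 to 3 mice of a mixed background. The series also holds 6 samples of activated satellite cells (ASCs) taken 3 days after cardiotoxin injury by α7-integrin+ VCAM1+ sorting, for which no column of counts could be matched to a sample. Hence Itga7 and Cd34 encode proteins that every QSC library was selected for, and Vcam1 one that the ASC libraries were selected for.

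The QSC libraries held 39556784 to 65750131 estimated counts. Gli3 itself was at 9.71 to 11.2 CPM (counts scaled to a common library size) in Gli3+/+ and 6.25 to 10.5 CPM in Gli3∆/∆ libraries. As the deletion removes part of the gene, a count over the whole gene is no check of it. The authors reported the excision in QSCs from RT-qPCR of Gli3. Pax7, the transcription factor that defines satellite cells, was at 798 to 1157 CPM, and the 5 satellite cell markers summed to 2028 to 2260 CPM in Gli3+/+ and 2062 to 2355 CPM in Gli3∆/∆. The genes of the proteins sorted against were far below Pax7: Pecam1 (CD31) was at 22.5 to 40.05 CPM, Ly6a (SCA1) at 4.21 to 8.34, Ptprc (CD45) at 0.252 to 2.11 and Itgam (CD11b) at 0 to 1.54. Pecam1 still stood above Cdh2, the lowest of the 10 markers, at 9.53 to 15.9 CPM. None of the markers of other cell types was called. Fibro-adipogenic markers (8 genes, of which Col3a1 gave most counts) summed to 2460 to 4205 CPM in Gli3+/+ and 3836 to 4104 in Gli3∆/∆, mural markers (6, mostly Notch3, which is also on the list of satellite cell genes) to 1482 to 2322 and 1643 to 2580, myofiber markers (6) to 45.0 to 60.03 and 49.3 to 72.3, macrophage markers (8) to 12.02 to 28.8 and 10.7 to 17.8, and lymphocyte markers (4 of 5 listed, without Cd3g) to 2.09 to 2.83 and 1.77 to 2.97. Genes of the response to tissue dissociation (8, such as Fos and Jun) summed to 34841 to 44758 CPM in Gli3+/+ and 34564 to 34921 in Gli3∆/∆, and activation genes (6, mostly Myod1 and Ccnd1) to 152 to 275 and 214 to 321. These sums hide their low members, some of which are named here after their values were seen. Of the mural markers 4 of 6 had an unadjusted edgeR p under 0.05, beside 7.11% of all genes. Their log2 fold changes were -0.60 for Abcc9, -1.50 for Myh11, -0.92 for Rgs5 and 0.42 for Cspg4. Without such a p, Kcnj8 was at -0.19 and Notch3, which gave most of the mural counts, at 0.17. Of the fibro-adipogenic markers 2 of 8 had such a p (7.11% of all genes), Cd55 at -0.70 and Pi16 at -1.08. Yet 4 of these 8 went the other way without such a p: Col3a1 (0.30), Dcn (0.35), Dpt (0.26) and Smoc2 (0.37). Dpt was higher in each Gli3∆/∆ library than in each control. Myog, the myogenin gene of myogenic differentiation, was at 4.94, 2.61 and 6.31 CPM in Gli3+/+ and 14.2, 9.67 and 9.05 CPM in Gli3∆/∆. Its log2 fold change was 1.25 with an edgeR adjusted p of 0.297. The genotypes did not overlap for Myog, as for 13.0% of all genes. The part of these genes in the values of the 10 markers was not tested.

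Gli3+/+ replicate 3 stood apart. Its chi-square per degree of freedom against the other Gli3+/+ libraries was 145 and 168, while the other pairs of one genotype lay between 57.8 and 80.1. No 2 libraries of one genotype therefore agreed within sampling noise, and the results that rest on replicate 3 are given below with and without it.

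All 10 genes were abundant enough to be measured in each library, from 9.53 CPM for Cdh2 to 952 CPM for Vcam1. CPM were taken after TMM normalisation and are not corrected for the length of a gene. Differences between genotypes were tested with the edgeR quasi-likelihood test over all 25093 genes, with a call where the adjusted p fell below 0.05 and the change reached 1.2-fold. None of the 10 markers was called, against 88 genes or 0.351% of all genes. DESeq2 also called 0 of 10 (1.53% of all genes), and limma-voom 0 of 10 (0.291%). At an unadjusted p under 0.05 stood 1 of 10 markers, against 7.11% of all genes, and the libraries of the genotypes did not overlap for 1 of 10, against 13.0% of all genes. It was the same gene, Cdh15. The mean was higher in Gli3∆/∆ for 3 markers and lower for 7, with a median log2 fold change of -0.07, beside -0.03 over all genes. In bulk RNA of sorted cells, fewer cells of a type and less RNA per cell cannot be told apart.

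**Figure D1:**
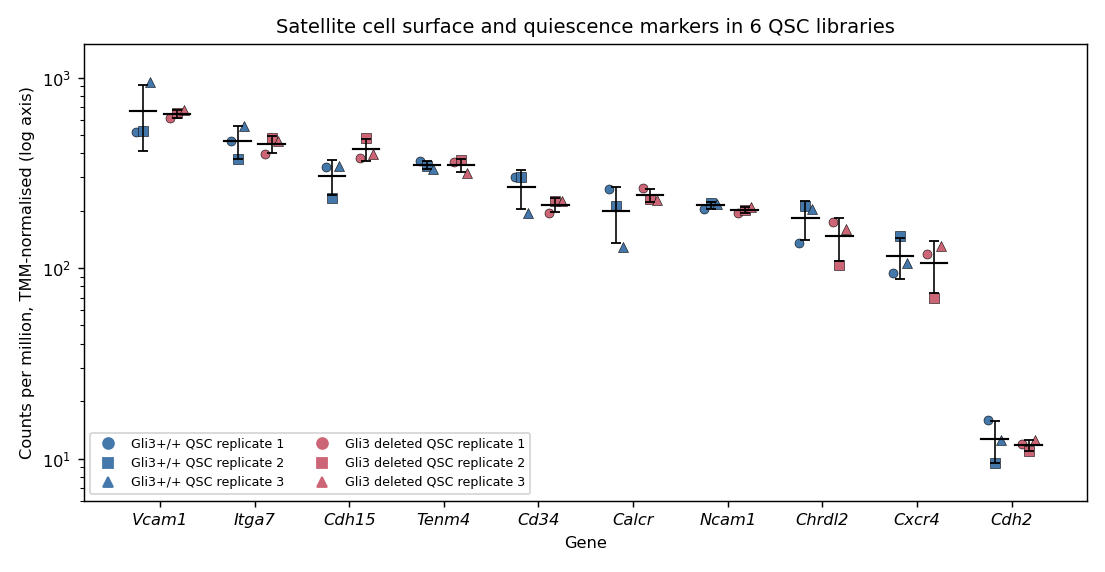
CPM (log axis) of the 10 markers in each QSC library, with genes in order of their mean. Blue symbols are the Gli3+/+ and red symbols the Gli3∆/∆ libraries (circle, square and triangle for replicates 1, 2 and 3), bars are the mean and SD of 3 libraries, and the genotypes are separate for Cdh15 alone.

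Calcr (ENSMUSG00000023964.15, chromosome 6 of GRCm38, 3685680 to 3764714, minus strand) encodes the calcitonin receptor. It was at 259, 213 and 130 CPM in Gli3+/+ replicates 1 to 3 and at 263, 231 and 227 CPM in Gli3∆/∆ replicates 1 to 3. The means were 200 ± 65.5 and 241 ± 19.8 CPM (SD, n = 3 libraries each), a log2 fold change of 0.26 (SE 0.23, 95% interval -0.26 to 0.79, edgeR adjusted p = 0.903). The genotypes overlapped, and Gli3+/+ replicate 3 lay lowest of all 6 libraries. Without it the log2 fold change was 0.03 (95% interval -0.28 to 0.34), and without Gli3+/+ replicate 1 it was 0.49.

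The partners of the receptor did not pass the test either. Of 12 genes read around it, 0 were called, 6 had a higher and 6 a lower mean in Gli3∆/∆. The accessory proteins Ramp1 and Ramp3, which turn the calcitonin receptor into an amylin receptor, stayed below 1 CPM in each library. Ramp2 was at 56.5, 53.2 and 32.3 CPM in Gli3+/+ and 59.6, 70.1 and 74.5 CPM in Gli3∆/∆, higher in each Gli3∆/∆ library, with a log2 fold change of 0.52 that did not pass (edgeR adjusted p = 0.657). Gnas, the stimulatory G protein that links such receptors to cyclic AMP, was at 3237 to 3797 CPM in Gli3+/+ and 3859 to 4314 CPM in Gli3∆/∆. The genotypes did not overlap for 3 of the 12 genes, beside 13.0% of all genes. These were Ramp2 and Gnas, higher in Gli3∆/∆, and Ramp3, lower. Prkaca and Prkacb, the catalytic subunits of protein kinase A, were at 51.7 to 63.4 and 98.6 to 136 CPM. The collagen genes Col5a1 and Col5a3, whose product is a ligand of the receptor in QSCs, were at 355 to 553 and 851 to 1894 CPM.

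Introns of 2 of the 10 markers hold microRNA genes on the same strand, and their 7 mature microRNAs are shown because one of these loci, miR-489, is known for keeping satellite cells quiescent. The sequences are from RefSeq on GRCm38.p6, 5′ to 3′, with the seed (bases 2 to 8) in capitals. The first 4 lie in intron 4 of 15 of the Calcr transcript with the longest coding part, the other 3 in intron 1 of 32 of Tenm4, and none touches an exon of its host.
miR-489-3p, chr6:3721922-3721944: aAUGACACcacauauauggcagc
miR-489-5p, chr6:3721957-3721981: uGUCAUAUgugugaugacacuuucu
miR-653-3p, chr6:3721315-3721335: uUCACUGGaguuuguuucagu
miR-653-5p, chr6:3721355-3721375: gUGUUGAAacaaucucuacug
miR-708-5p, chr7:96249450-96249472: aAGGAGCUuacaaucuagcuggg
miR-708-3p, chr7:96249496-96249517: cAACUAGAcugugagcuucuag
miR-6394, chr7:96305740-96305760: uCCCUGAGuggggccaggucu
The 7 seeds are all different, so that no pair of them falls into one seed family. The 4 microRNAs in Calcr are read from the minus strand and the 3 in Tenm4 from the plus strand. Libraries of polyadenylated RNA count the spliced host, not these short products, and the values of Calcr and Tenm4 say nothing on the level of the microRNAs.

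Cd34 (ENSMUSG00000016494.9, chromosome 1, 194938819 to 194961279, plus strand) encodes a sialomucin of stem and endothelial cells, and its protein was in the QSC gate. It was at 302, 302 and 195 CPM in Gli3+/+ and 195, 226 and 225 CPM in Gli3∆/∆. The means were 266 ± 61.6 and 215 ± 17.9 CPM (SD, n = 3 each), with a log2 fold change of -0.31 (SE 0.19, 95% interval -0.73 to 0.12, edgeR adjusted p = 0.843). Replicates 1 and 2 of Gli3+/+ lay above all Gli3∆/∆ libraries, but replicate 3 lay among them. Without replicate 3 the log2 fold change was -0.49 (95% interval -0.76 to -0.21, unadjusted p = 0.00337), and the edgeR adjusted p over all genes was 0.242. Endothelial cells also express Cd34. Their 8 markers summed to 59.9 to 136 CPM in Gli3+/+ and 67.2 to 84.3 CPM in Gli3∆/∆, with 7 of 8 lower on average in Gli3∆/∆ and 0 called. The part of such cells in the values of Cd34 was not tested. Of the related genes, Podxl, another sialomucin of this family, was at 27.2, 20.2 and 35.8 CPM in Gli3+/+ and 13.9, 17.7 and 17.6 CPM in Gli3∆/∆. It was lower in each Gli3∆/∆ library, a separation found in 13.0% of all genes, but did not pass (log2 fold change -0.76, edgeR adjusted p = 0.396).

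Vcam1 (ENSMUSG00000027962.14, chromosome 3, 116109949 to 116129688, minus strand) encodes an immunoglobulin family adhesion molecule that binds α4 integrins. It was at 515, 524 and 952 CPM in Gli3+/+ and at 609, 650 and 674 CPM in Gli3∆/∆. The means of 664 ± 250 and 645 ± 32.6 CPM (SD, n = 3 each) gave a log2 fold change of -0.04 (SE 0.24, 95% interval -0.58 to 0.49, edgeR adjusted p = 0.998). The control libraries lay on both sides of the Gli3∆/∆ libraries, with replicate 3 highest of all. Without it the direction turned, to a log2 fold change of 0.31 (95% interval 0.04 to 0.58, unadjusted p = 0.028, edgeR adjusted p = 0.550). Of the genes of integrin chains, Itga4 (α4) was low in the same cells, at 2.93 to 3.85 CPM, and so was Itgb7 (β7), at 0.719 to 1.81 CPM. Itgb1, the gene of the β1 chain, was at 474 to 781 CPM.

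Itga7 (ENSMUSG00000025348.9, chromosome 10, 128933818 to 128958282, plus strand) encodes the α7 chain of the laminin receptor and was in the gate of all cells. It was at 463, 373 and 555 CPM in Gli3+/+ and 397, 483 and 466 CPM in Gli3∆/∆. With means of 464 ± 91.2 and 448 ± 45.8 CPM (SD, n = 3 each), the log2 fold change was -0.05 (SE 0.17, 95% interval -0.44 to 0.34, edgeR adjusted p = 0.989). All Gli3∆/∆ libraries fell within the range of the controls. Without Gli3+/+ replicate 3 the log2 fold change was 0.10.

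Around Itga7, 4 of 5 genes had a higher mean in Gli3∆/∆, 0 of 5 were called, and 3 of 5 had an unadjusted p under 0.05 (7.11% of all genes). These 3, named after their values were seen, were Dag1, Lamb1 and Lamc1. Dag1, which encodes dystroglycan, the other main laminin receptor of muscle, was at 1437, 1014 and 1133 CPM in Gli3+/+ and 1735, 2261 and 1613 CPM in Gli3∆/∆ (log2 fold change 0.65, edgeR adjusted p = 0.388). The laminin chain genes Lamb1 and Lamc1 had log2 fold changes of 0.47 and 0.41. For all 3 genes the genotypes did not overlap (13.0% of all genes), while Itgb1, the partner chain of α7, was at 474 to 781 CPM in Gli3+/+ and 554 to 580 CPM in Gli3∆/∆ with overlap.

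Cxcr4 (ENSMUSG00000045382.6, chromosome 1, 128588199 to 128592293, minus strand) encodes the receptor of the chemokine CXCL12. It was at 93.9, 148 and 106 CPM in Gli3+/+ and 119, 69.8 and 131 CPM in Gli3∆/∆. The means were 116 ± 28.2 and 107 ± 32.5 CPM (SD, n = 3 each), with a log2 fold change of -0.12 (SE 0.25, 95% interval -0.69 to 0.46, edgeR adjusted p = 0.967). The genotypes overlapped over most of their range. Its ligand gene Cxcl12 was at 55.6 to 112 CPM and the second CXCL12 receptor gene Ackr3 at 173 to 282 CPM, and neither was called.

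Cdh15 (ENSMUSG00000031962.6, chromosome 8, 122847966 to 122867397, plus strand) encodes M-cadherin, which joins the satellite cell to its fiber. It was at 338, 233 and 345 CPM in Gli3+/+ and at 379, 484 and 399 CPM in Gli3∆/∆. The means were 305 ± 62.5 and 421 ± 55.9 CPM (SD, n = 3 each), with a log2 fold change of 0.46 (SE 0.18, 95% interval 0.04 to 0.88). Each Gli3∆/∆ library lay above each control. The unadjusted p was 0.0336 and the edgeR adjusted p 0.648, so the difference did not pass over all genes. Over 15 alternative settings the log2 fold change stayed between 0.31 and 0.56 and the adjusted p between 0.393 and 0.984. When 1 library was left out, the unadjusted edgeR p ran from 0.016 (without Gli3+/+ replicate 3) to 0.132 (without Gli3∆/∆ replicate 2). It was 0.106 without Gli3+/+ replicate 2, the lowest library.

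Cdh2 (ENSMUSG00000024304.14, chromosome 18, 16588877 to 16809246, minus strand) encodes N-cadherin, the other cadherin of the niche contact. It was the lowest of the 10 markers, at 15.9, 9.53 and 12.5 CPM in Gli3+/+ and 11.9, 11.0 and 12.5 CPM in Gli3∆/∆. The means of 12.6 ± 3.18 and 11.8 ± 0.758 CPM (SD, n = 3 each) gave a log2 fold change of -0.10 (SE 0.21, 95% interval -0.57 to 0.37, edgeR adjusted p = 0.964). The controls spanned all Gli3∆/∆ libraries, and no library held fewer than 538 counts of the gene. The catenin genes that carry the inner side of cadherin contacts, Ctnnb1, Ctnna1, Ctnnd1 and Jup, had a lower mean in Gli3∆/∆ in 4 of 4 cases with overlap in each, and 0 were called. Their log2 fold changes were small, at -0.05, -0.18, -0.05 and -0.04, beside a median of -0.03 over all genes.

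Ncam1 (ENSMUSG00000039542.16, chromosome 9, 49502136 to 49798925, minus strand) encodes the neural cell adhesion molecule CD56. It was at 203, 219 and 217 CPM in Gli3+/+ and 194, 201 and 208 CPM in Gli3∆/∆. The means of 213 ± 8.56 and 201 ± 6.86 CPM (SD, n = 3 each) gave a log2 fold change of -0.08 (SE 0.12, 95% interval -0.36 to 0.19, edgeR adjusted p = 0.943). The genotypes overlapped in a narrow range. St8sia2 and St8sia4, which add polysialic acid to NCAM, were at 1.99 to 5.06 and 1.04 to 2.63 CPM. Schwann cells also express Ncam1. Their 6 markers summed to 236 to 289 CPM in Gli3+/+ and 169 to 254 CPM in Gli3∆/∆, and 0 were called. Most of these counts came from 1 gene, with a log2 fold change of 0.01. The other 5 were lower in each Gli3∆/∆ library, a separation found in 13.0% of all genes. An unadjusted p under 0.05 was reached by 4 of the 6 (7.11% of all genes), and their median log2 fold change was -0.96 over all 6. The part of Schwann cells in the values of Ncam1 was not tested.

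Tenm4 (ENSMUSG00000048078.16, chromosome 7, 96171246 to 96911093, plus strand) encodes a teneurin, a large transmembrane protein that binds latrophilins on neighbouring cells. It was at 365, 344 and 330 CPM in Gli3+/+ and 360, 367 and 316 CPM in Gli3∆/∆. With means of 347 ± 17.4 and 348 ± 27.4 CPM (SD, n = 3 each), the log2 fold change was 0.00 (SE 0.13, 95% interval -0.29 to 0.30, edgeR adjusted p = 1.0). It was the marker with the smallest difference of all, and its libraries interleaved. Of the other teneurin genes, Tenm3 was at 64.8 to 81.0 CPM, Tenm2 at 6.01 to 9.10 CPM and Tenm1 below 1 CPM. The latrophilin genes Adgrl1, Adgrl2 and Adgrl3 were at 40.3 to 59.4, 12.5 to 21.1 and 3.62 to 9.33 CPM.

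Chrdl2 (ENSMUSG00000030732.13, chromosome 7, 100006172 to 100034728, plus strand) encodes a secreted chordin-like inhibitor of bone morphogenetic proteins (BMPs), and is read as a marker of quiescence and not as a surface protein. It was at 135, 211 and 204 CPM in Gli3+/+ and 175, 104 and 161 CPM in Gli3∆/∆. The means were 183 ± 42.3 and 146 ± 37.2 CPM (SD, n = 3 each), with a log2 fold change of -0.32 (SE 0.23, 95% interval -0.85 to 0.21, edgeR adjusted p = 0.881). The genotypes overlapped. The log2 fold change was -0.50 without Gli3+/+ replicate 1 and -0.13 without Gli3∆/∆ replicate 2. Among 10 BMP ligands, receptors and inhibitors, 0 were called and 2 had an unadjusted p under 0.05 (7.11% of all genes). They were Bmp2, with a log2 fold change of -0.74, and Chrdl1, a relative of Chrdl2, at 9.19, 8.73 and 10.8 CPM in Gli3+/+ and 6.297, 6.71 and 7.69 CPM in Gli3∆/∆ with a log2 fold change of -0.47. Both were lower in each Gli3∆/∆ library, a separation of genotypes found in 13.0% of all genes.

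**Figure D2:**
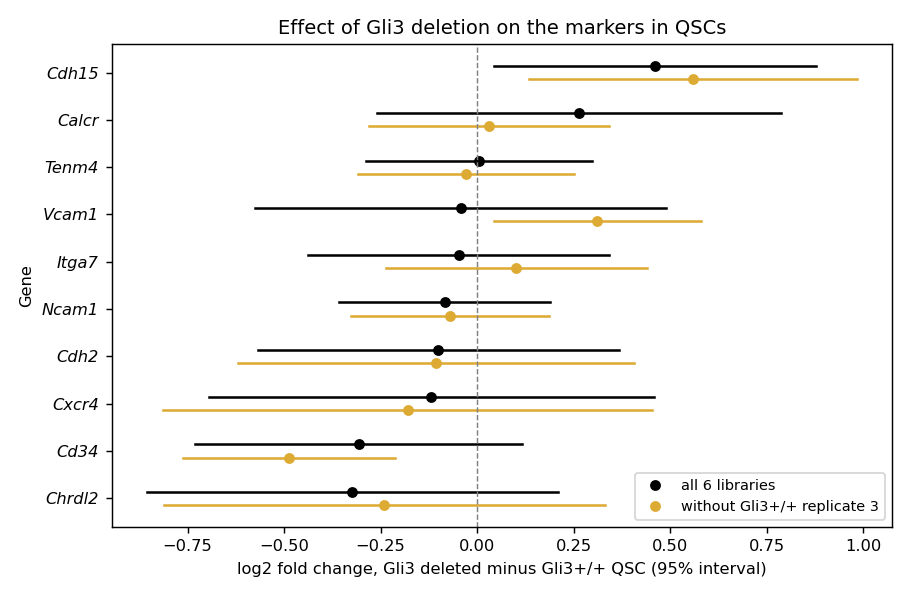
Log2 fold change of each marker between Gli3∆/∆ and Gli3+/+ QSCs (x axis) with its 95% interval from edgeR. Black marks all 6 libraries and yellow the fit without Gli3+/+ replicate 3. With all libraries the interval of Cdh15 alone leaves out 0, and without that replicate so do those of Cdh15, Vcam1 and Cd34. The fit without it called 91 of 25093 genes and 0 of 10 markers. The share of all genes whose interval leaves out 0 in that fit was not counted.

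Over the fixed list of 47 partner genes, 0 were called and 7 had an unadjusted p under 0.05, beside 7.11% of all genes, with 21 higher and 26 lower on average in Gli3∆/∆ and a median log2 fold change of -0.03. The genotypes did not overlap for 9 of the 47, beside 13.0% of all genes. Of 24 other satellite cell genes, such as Pax7, Myf5, Sdc4 and Spry1, 0 were called, 10 were higher and 14 lower on average, with a median of -0.03. An unadjusted p under 0.05 was reached by 2 of these 24 (7.11% of all genes). For 2 the genotypes did not overlap (13.0% of all genes).

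The libraries of one genotype varied by more than counting. For 7 of 10 markers the coefficient of variation was larger among the Gli3+/+ than among the Gli3∆/∆ libraries, which also held for 64.9% of the 9592 genes with a mean of at least 10 CPM. Calcr varied by 32.7% among Gli3+/+ and 8.23% among Gli3∆/∆ libraries, and Vcam1 by 37.6% and 5.06%. Both control values rested largely on Gli3+/+ replicate 3. Calcr was at 130 CPM there, against 259 and 213 CPM in Gli3+/+ replicates 1 and 2. Vcam1 was at 952 CPM there, against 515 and 524 CPM. The variation without replicate 3 was not computed. Ncam1 and Tenm4 were the steadiest, at 4.02% and 3.41% for Ncam1 and 5.04% and 7.89% for Tenm4. In Gli3+/+ replicate 3 the surface genes Sdc4 and Cav1 also stood out, with 2714 CPM of Sdc4 against 891 to 1401 CPM in the other 5 libraries. Gli3+/+ replicate 2 held the highest or lowest value for 7 of 10 markers, replicate 3 for 3.

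Some markers moved together over the 6 libraries, described here by Pearson's r of log2(CPM + 1), with both genotypes in the same 6 points. Cxcr4 and Chrdl2 were the closest pair of 45, at r = 0.85. Calcr and Vcam1 were the most opposed, at r = -0.84, which fell to -0.08 without Gli3+/+ replicate 3. Cd34 and Vcam1, both used to sort these cells in one of the states, were opposed at -0.77, and at -0.82 without that library. Among 7499 genes with a mean of at least 20 CPM, the nearest to Calcr were Zfp386, Sccpdh and Prepl (r = 0.987, 0.980 and 0.978), to Cd34 Stox2, Akap12 and Echs1 (0.998, 0.993 and 0.992), and to Vcam1 Mak16, Nol6 and Arfgap1 (0.995, 0.994 and 0.994). The nearest to Cdh15 were Ergic1, Gask1b and Gnas (0.993, 0.992 and 0.988). Those to Itga7 were Nfe2l1, Nxn and Lss (0.981 for each), to Cxcr4 Birc2, Cblb and Tcp11l2 (0.992, 0.980 and 0.979), and to Chrdl2 Pcsk5, Clstn3 and Pitpnc1 (0.988, 0.9747 and 0.970). With 6 points such values are common: for a typical gene the third nearest gene stood at 0.984. Cdh2 had no such neighbour, as Mpc1, the closest, stood at 0.928.

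Ratios within a library do not depend on scaling between libraries. The Cdh15 count was 21.2, 24.5 and 27.6 times that of Cdh2 in Gli3+/+ and 31.8, 44.1 and 32.0 times in Gli3∆/∆, a difference of 0.55 on the log2 scale. Each Gli3∆/∆ library lay above each control, and the exact two-sided permutation test gave p = 0.1, the smallest that 3 libraries against 3 allow. The CPM of Cdh15 alone already separated the genotypes, so this ratio is not a second, independent result. For the QSC gate genes, the Itga7 count was 1.54, 1.23 and 2.85 times that of Cd34 in Gli3+/+ and 2.04, 2.14 and 2.07 times in Gli3∆/∆ (log2 difference 0.25, exact permutation p = 0.6). The Vcam1 count was 1.71, 1.73 and 4.88 times that of Cd34 in Gli3+/+ and 3.13, 2.88 and 2.99 times in Gli3∆/∆ (log2 difference 0.30, exact permutation p = 0.4). In both, the Gli3∆/∆ libraries lay close together between the high control replicate 3 and the other controls, and the genotypes overlapped.

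**Figure D3:**
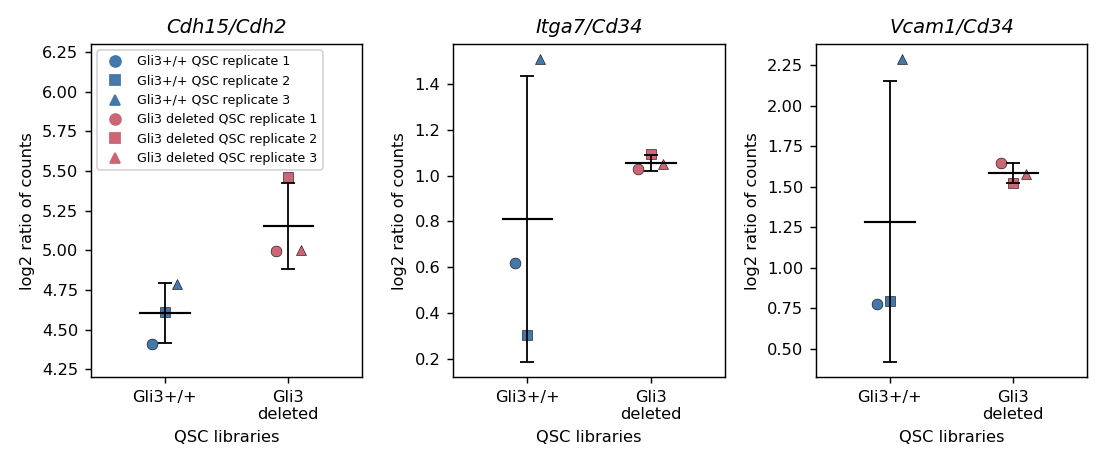
Log2 ratio of the counts of 2 markers within each library, for Cdh15 to Cdh2, Itga7 to Cd34 and Vcam1 to Cd34, with the mean and SD of 3 libraries per genotype. The genotypes are separate for Cdh15 to Cdh2, and in the other panels Gli3+/+ replicate 3 lies above all other libraries.

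For levels between genes, CPM were divided by the length of the merged exons in kilobases. Cdh15 was highest, at 112 ± 25.4 CPM per kb (SD over 6 libraries), followed by Vcam1 at 73.7 ± 18.01, Cxcr4 at 61.5 ± 15.3, Calcr at 56.4 ± 12.4, Itga7 at 56.4 ± 8.04, Chrdl2 at 45.0 ± 11.2 and Cd34 at 33.0 ± 6.75. Down to Cd34, each overlapped the one before it in its range over libraries. Ncam1 followed at 23.9 ± 1.10, Tenm4 at 16.5 ± 0.979 and Cdh2 at 1.51 ± 0.263 CPM per kb, each apart from the one before it, and the order from Cd34 down held in each of the 6 libraries. Of 25080 genes with a length, Cdh15 stood at rank 368 and Cdh2 at rank 11738. The order of the upper 7 depends on the length chosen: with the longest transcript, or with the coding part alone, Vcam1 came first, while Ncam1, Tenm4 and Cdh2 remained the last.

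**Figure D4:**
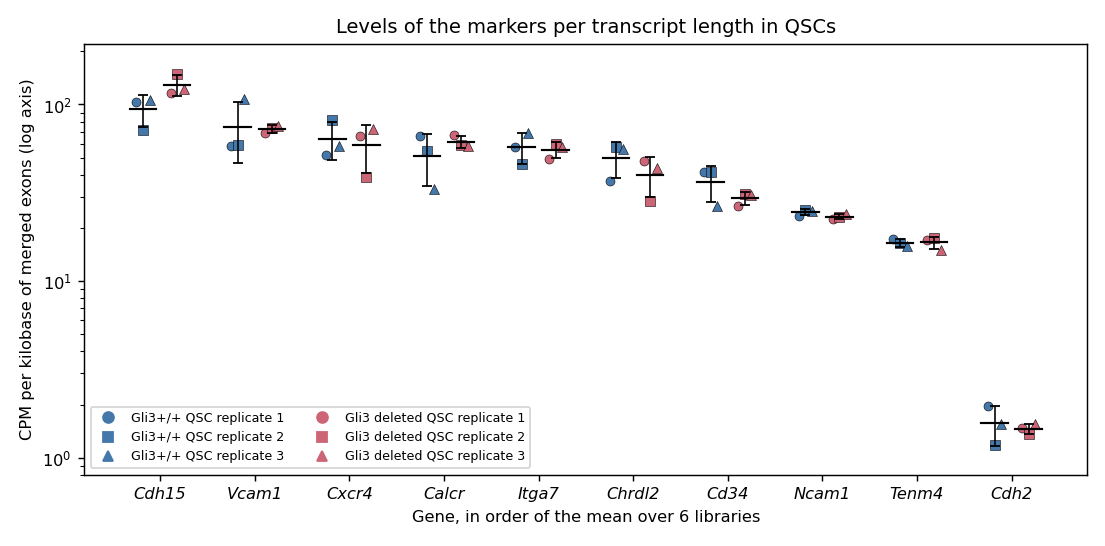
CPM per kilobase of merged exons (log axis) of the 10 markers in each QSC library, from the highest to the lowest mean, with the mean and SD of 3 libraries per genotype. Among the first 7 genes each overlaps the one before it, Ncam1 and Tenm4 lie apart, and Cdh2 lies far below the rest at 1.51 CPM per kb.

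The activated state entered only through the mean per gene that the authors deposited with their comparisons, which is the same in all 4 tables and is taken here as their mean over the 12 libraries, QSCs and ASCs of both genotypes. It was divided by the mean of the 6 QSC libraries on size-factor scale. A gene with no reads at all outside the QSC libraries would be near 0.5, and one at the same level near 1; over 13181 genes with a QSC mean of at least 100 the median was 0.921, and the lowest 5% lay under 0.535. Size factors were not the same in both sets, so these ratios are a description without a test.

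Calcr (0.465), Chrdl2 (0.467) and Tenm4 (0.524) lay among the lowest 5% of genes, at or near the value of a gene read in QSCs alone. The authors' mean was 5348 for Calcr against a QSC mean of 11505, with 6716 to 13817 in single QSC libraries. Cd34 (0.614), Cxcr4 (0.681), Vcam1 (0.699) and Cdh15 (0.731) also lay below the median of all genes. Ncam1 (0.905) lay just below it, with 48.2% of genes at a lower ratio. Itga7, in the sort of both states, stood at 1.25. Cdh2 stood at 9.26, with an authors' mean of 5897 against a QSC mean of 637 and 495 to 831 in single QSC libraries, and 99.4% of genes had a lower ratio. Of the markers, 8 were thus below the median of all genes, 0.921, and 2 above it. The cadherins Cdh15 and Cdh2 stood on opposite sides of this median. The genotype of the ASC libraries cannot be told apart in this mean.

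**Figure D5:**
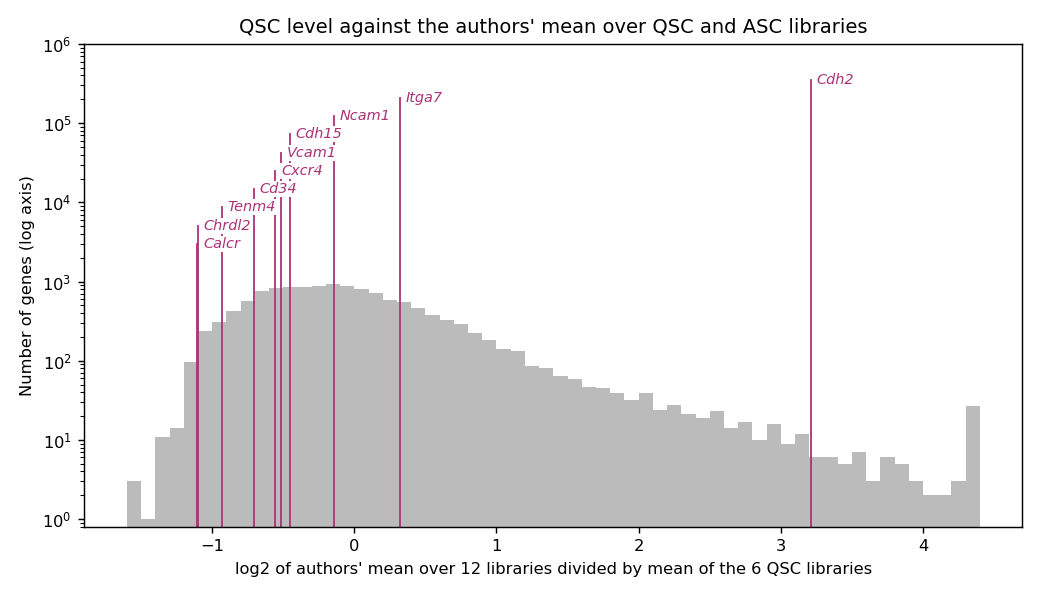
Histogram (log axis) of the log2 ratio of the authors' mean over 12 libraries to the mean of the 6 QSC libraries for 13181 genes, with values beyond either end of the axis drawn in the end bins. Purple lines mark the 10 markers, whose heights only separate the names: Calcr, Chrdl2 and Tenm4 lie at the low end and Cdh2 far to the high end.

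RefSeq windows of 250 bases before to 50 after a transcription start matched 5 of the 10 markers (Cxcr4, Cd34, Calcr, Tenm4 and Cdh15), with 7 windows. The GLI motif GACCACCCA, searched on both strands, was in 0 of the 7, and in 0.253% of all 32851 windows. The E-box CANNTG, which myogenic factors bind, was in 4 of 7, those of Calcr, Tenm4 and Cdh15, and in 72.3% of all windows. Some markers overlap other annotated genes: exons of Cd34, Vcam1, Itga7, Ncam1 and Tenm4 share bases with genes on the other strand, which held at most 32 counts in any library. Gm20388, a protein-coding gene that spans Cdh15 on the same strand and shares 0 exon bases with it, held 3686 to 6397 counts.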

How the data were processed

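Libraries of polyadenylated RNA were made with a strand-keeping kit. The authors quantified transcripts with salmon (GENCODE vM19, GRCm38), summed them to genes with tximport, and kept genes with at least 5 reads in at least 2 samples. They deposited estimated counts of 25093 genes, not normalised, of which 49.2% of the QSC values were not whole; these were rounded. The mean signal per gene deposited by the authors in 4 tables of their DESeq2 comparisons was used as their mean; the log2 fold changes, p-values and adjusted p-values deposited beside it were not used.

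The count table names its 6 QSC columns by sample title. The other 6 columns of values match no single sample's labels and were not used, so the planned ASC comparisons were not run.

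The 6 QSC libraries were fitted with edgeR 4.0.16 in R 4.3.3 (TMM, quasi-likelihood test, Benjamini-Hochberg adjustment over all genes). DESeq2 1.42.0 and limma 3.58.1 (voom with sample quality weights), other scalings, filters and left-out libraries were alternatives. The tests were checked on simulated counts. Ratios were compared with exact two-sided permutation tests. Libraries were compared over genes with at least 50 summed counts, and correlations used log2(CPM + 1). Totals of 39556784 to 65750131 counts per library limit the precision of low genes most. Each library combined several mice, and p-values measure only the spread between these libraries.

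Positions, lengths and overlaps came from GENCODE vM21, of the same build; 25080 gene identifiers matched and 96.3% carried the same version. The text names the 10 markers, genes of the partner, satellite cell, gate and marker lists, and for most markers the 3 genes of highest correlation. The markers and lists were chosen with earlier results of these data known. The result of one listed gene is not reported here.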

Additional observations from a re-analysis of the deposited data

How the results depend on the processing

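No marker was called in any of 15 alternatives. In the 14 that refit the values, 126 of 140 log2 fold changes kept their direction. The lowest adjusted p was 0.242, for Cd34 without Gli3+/+ replicate 3. The 14 that turned were those of Vcam1, Itga7, Tenm4, Cxcr4 and Cdh2. With limma-voom the log2 fold change was 0.20 for Vcam1, 0.048 for Itga7 and -0.022 for Tenm4, and with protein-coding genes alone, an alternative chosen after seeing the data, it was -0.0021 for Tenm4. When 1 library was left out, the range was -0.20 to 0.31 for Vcam1, -0.18 to 0.10 for Itga7, -0.29 to 0.11 for Cxcr4, -0.26 to 0.10 for Cdh2 and -0.036 to 0.069 for Tenm4, and, with no turn, 0.03 to 0.49 for Calcr and -0.50 to -0.13 for Chrdl2. The causes were not tested.

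The number of genes called over the whole table was 88, and 384 with DESeq2, 48 with at least 10 counts in every library, 44 with protein-coding genes alone, and 58 to 103 when 1 library was left out, with 58 without Gli3∆/∆ replicate 3. Where 1 library of a genotype was left out, the other 2 were tested against 3.

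Replicate numbers do not pair the libraries: same-numbered libraries deviated from their group means with correlations of -0.17 to -0.05, and 0 of 6 libraries correlated best with its own number. With the replicate number as a block, 79 genes and 0 markers were called, Vcam1 turned to 0.020, and the ratio differences were unchanged at 0.55, 0.25 and 0.30, with exact sign-flip p of 0.25, 0.75 and 0.5.

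The log2 ratio difference lay between 0.39 and 0.64 for Cdh15 to Cdh2, -0.0066 (without Gli3+/+ replicate 2) and 0.60 (without Gli3+/+ replicate 3) for Itga7 to Cd34, and 0.043 (without Gli3+/+ replicate 1) and 0.80 (without Gli3+/+ replicate 3) for Vcam1 to Cd34 when 1 library was left out. In the order of levels, 3 markers kept their rank with the longest transcript, 6 with the coding length, 1 without division by length (chosen after seeing the data) and 7 to 10 when 1 library was left out. The alternatives for ASCs were not run. Cdh2, at 538 counts or more, is the marker that depth limits most.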
